A study of Homo sapiens with 12 samples.

Results

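The G1 cyclins, cyclin-dependent kinases and their inhibitors are described here in LNCaP-shPRMT5 cells, an LNCaP line that carries a hairpin against PRMT5 switched on by doxycycline. LNCaP is an established human prostate cancer line. The members were the 10 genes CCND1, CCND2, CCND3, CDK2, CDK4, CDK6, CDKN1B, CDKN2C, CDKN2D and RB1, found by name among the 63299 genes of the count tables. Polyadenylated RNA was sequenced from 12 libraries in 4 groups of 3. The control 0 Gy group received neither doxycycline nor radiation, and the knockdown 0 Gy group received doxycycline at 1 µg/mL every 48 h. The control 2 Gy and knockdown 2 Gy groups were treated alike and were also given 2 Gy, with harvest 24 h later. All 4 groups carry the hairpin construct, and the labels name no group with doxycycline and another hairpin, so that the effects of doxycycline and of PRMT5 loss cannot be told apart. The 2 irradiation states were deposited as separate count tables, so that radiation and any difference between the tables cannot be told apart. The labels do not say whether replicates were grown separately, so the p-values cover the spread between these libraries, part or all of which may be technical.

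Passage through G1 is driven by D-type cyclins, which bind and activate the kinases CDK4 and CDK6, and later by cyclin E with CDK2. These kinases phosphorylate the retinoblastoma protein RB1, which otherwise holds E2F transcription factors silent on the promoters of DNA replication genes. Inhibitors of the INK4 family, among them the products of CDKN2C (p18) and CDKN2D (p19), bind CDK4 and CDK6, whereas the product of CDKN1B (p27) binds cyclin-kinase complexes and restrains CDK2. PRMT5 is a methyltransferase that symmetrically dimethylates arginine residues, in histones and in splicing factors among other proteins. Much of the control of these proteins lies in phosphorylation and protein turnover, which RNA counts do not measure.

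Total counts ran from 14801939 to 33158865 per library, and a count of 3, the limit that a count of 0 allows, was worth between 0.0905 and 0.203 CPM (counts scaled to library size, here TMM-normalised), counting error only. PRMT5 itself lay between 186 and 230 CPM in the 6 control libraries and between 24.9 and 32.8 CPM in the 6 knockdown libraries, so that every library matched its doxycycline label. PRMT5 cannot check the radiation label, as its log2 fold change with irradiation was 0.07 in controls and -0.12 in knockdowns. It was at 15.7% of the control mean without irradiation and at 13.8% with it, and 27.1% of its exon bases also lie in PRMT5-AS1. The 8 luminal prostate markers, KLK3 and TMPRSS2 among them, were present in every library, with a summed level between 6413 and 9081 CPM. The summed leukocyte markers stayed at or below 0.629 CPM. Both irradiated libraries of replicate 1 stood apart from the others of their groups. In the irradiated controls the chi-square per gene was 144 and 116 between replicate 1 and the others, against 13.7 between replicates 2 and 3, and in the irradiated knockdowns it was 82.4 and 62.3 against 9.79. Both non-irradiated libraries of replicate 1 held the basal keratin KRT5, at 5.09 and 8.44 CPM, where the other libraries had 0 or 1 count. Several results that rest on these libraries are therefore given with and without them.

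Compared per kilobase of exon, the members spanned a wide range of levels, with CDK4 and CCND1 at the top and CCND2 and CDK6 at the bottom. In the control 0 Gy group CDK4 stood at 49.5 ± 1.20 CPM per kilobase (SD, n = 3) and CCND1 at 45.6 ± 2.19. CDKN1B followed at 31.4 ± 2.61 and RB1 at 10.2 ± 0.470. CDK2 (6.63 ± 0.497) came next, then CCND3 (4.69 ± 0.590) and CDKN2D (4.38 ± 0.861), whose libraries overlapped. CDKN2C stood at 1.15 ± 0.261 and CDK6 at 0.0885 ± 0.105. Apart from CCND3 and CDKN2D, no neighbours in this order overlapped in their libraries. In the other 3 groups CDK4 and CCND1 overlapped, and in the knockdown 2 Gy group CCND1 had the higher mean, 81.0 ± 7.71 against 69.6 ± 19.2 CPM per kilobase.

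**Figure D1:**
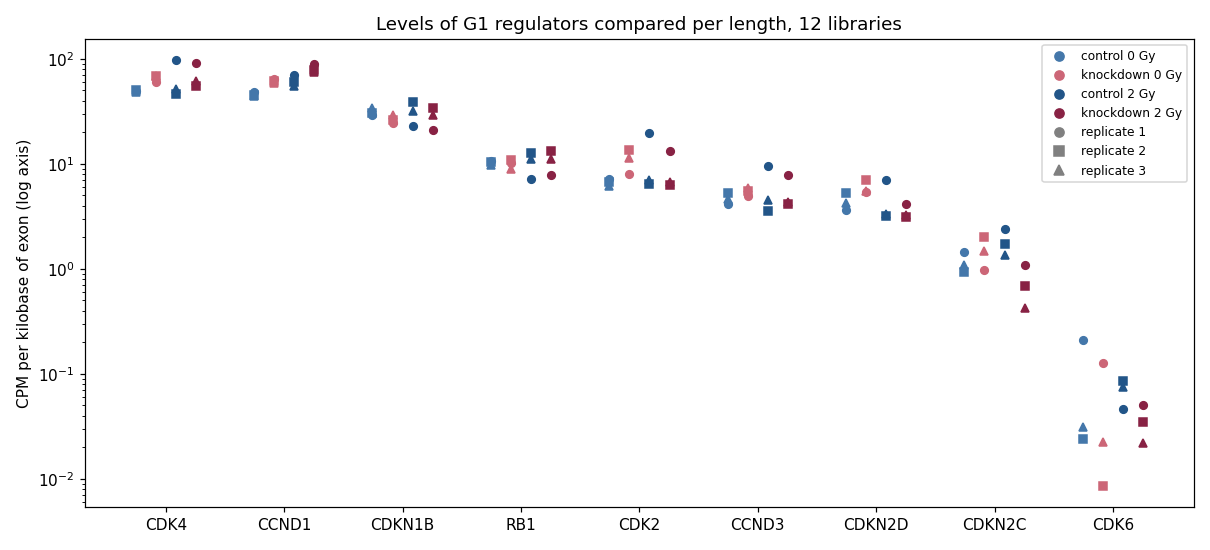
Levels of 9 members in CPM per kilobase of exon on a log axis, with 1 point per library, coloured by group and shaped by replicate number. CDK4 and CCND1 are highest and CDK6 lowest in every group; CCND2, with counts of 0 in some libraries, is not drawn.

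CCND1 supplied most of the D-cyclin RNA and CDK4 most of the RNA of the G1 kinases in every group. Per kilobase, CCND1 made up 90.6% ± 1.33, 91.9% ± 0.931, 91.6% ± 3.32 and 93.8% ± 1.60 (SD, n = 3 each) of the 3 D cyclins in the control 0 Gy, knockdown 0 Gy, control 2 Gy and knockdown 2 Gy groups. CDK4 made up 88.0% ± 0.914, 85.7% ± 2.25, 86.2% ± 2.55 and 89.1% ± 1.48 of CDK2, CDK4 and CDK6 together, in the same order. None of the 8 differences between groups passed a 2-sided exact permutation test (adjusted p between 0.4 and 0.7), and with 3 libraries against 3 the smallest p this test allows is 0.1.

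RefSeq promoter windows (GRCh38.p14, 250 bases before to 50 after a transcript start) were found for 7 of the 10 members, 12 windows in all. None was found for CCND1, CCND2 and CDK2, and CCND3, CDK6 and CDKN2C had more than 1 each. The only RB1 window (chr13:48476200-48476499) lies within the gene, which starts at 48303751, so the sequence at that start was not searched. The windows of CCND3, CDK4 and CDKN1B also lie inside the gene spans given below, not at their outermost starts (42050357, 57756013 and 12715058). Those of CDK4 and CDKN1B are shown because the kinase and the inhibitor differed from their controls in opposite directions when replicates were paired. Capitals mark GC boxes (GGGCGG on either strand) and CCAAT boxes (CCAAT on either strand). The CDK4 window lies on the minus strand at chr12:57752261-57752560 and the CDKN1B window on the plus strand at chr12:12717118-12717417.
CDK4: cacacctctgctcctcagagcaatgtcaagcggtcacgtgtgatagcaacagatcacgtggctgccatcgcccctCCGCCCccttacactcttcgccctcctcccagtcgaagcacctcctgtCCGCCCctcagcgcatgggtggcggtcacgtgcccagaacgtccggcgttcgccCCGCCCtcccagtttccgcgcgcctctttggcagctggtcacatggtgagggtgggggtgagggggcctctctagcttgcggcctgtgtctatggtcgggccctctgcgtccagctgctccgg
CDKN1B: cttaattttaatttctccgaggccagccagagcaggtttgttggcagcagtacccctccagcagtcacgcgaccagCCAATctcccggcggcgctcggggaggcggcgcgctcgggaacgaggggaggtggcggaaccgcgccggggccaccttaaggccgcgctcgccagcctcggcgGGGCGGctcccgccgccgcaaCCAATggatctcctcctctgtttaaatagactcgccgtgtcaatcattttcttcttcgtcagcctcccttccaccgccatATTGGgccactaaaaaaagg
The CDK4 window held 3 GC boxes and 0 CCAAT boxes, and the CDKN1B window held 1 GC box and 3 CCAAT boxes. A GC box was found in 8 of the 12 member windows and in 45.0% of all 35116 promoter windows, and a CCAAT box in 5 of the 12 and in 34.6% of all. The E2F words TTTCCCGC, TTTGGCGC, TTTCGCGC and TTTGCCGC, searched on both strands, were in 0 of the 12 and in 3.31% of all. The motifs do not overlap one another in the printed windows, and a match is a description of the letters only.

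The first question was which members differed between knockdown and control. CCND1, which encodes cyclin D1, was higher in the knockdown in both irradiation states, by close to the same amount in every pair, and it alone of the 9 members tested passed the test on the effect averaged over both states. CDKN1B was lower in the knockdown in every pair, and CDK4 was higher in 5 of 6 pairs. CDKN2C, an INK4 inhibitor, was lower in all 3 irradiated pairs, while its non-irradiated pairs had both signs. In edgeR with all libraries and no pairing, CCND1 was the 1 member that passed the test in a knockdown comparison. CDKN1B was called with the pairing of replicates and in none of the other alternatives, whereas CDK4 and CDKN2C were also called in some fits without pairing, given with each gene.

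At an adjusted p under 0.05 in edgeR, 0 of the 9 tested members were called for knockdown without irradiation, where 1.54% of the 17191 genes tested were. With irradiation 0 were called, against 0.297% of all genes, and 1 (CCND1) for the averaged effect, against 6.52% of all genes. At an unadjusted p under 0.05 the counts were 1, 2 and 1 of the 9, against 2999, 1595 and 3901 of the 17191 genes. Same-numbered libraries within a table deviated together, and with the replicate number as a block the counts were 4 without irradiation (CCND1, CDK2 and CDK4 higher, CDKN1B lower), 2 with it (CCND1 higher, CDKN2C lower) and 4 averaged (CCND1 and CDK4 higher, CDK6 and CDKN1B lower). That model called 27.8%, 11.5% and 34.3% of all genes, so the share of members called has to be read against a high background. DESeq2, with all libraries and no block, called CCND1 without irradiation (adjusted p = 0.0103, where it called 5.64% of all genes) and CDKN2C with it (1.51%). The median log2 fold change of the 9 was 0.38 without irradiation, -0.17 with it and 0.04 averaged, beside 0.00, -0.01 and 0.00 over all genes tested. These are bulk samples, in which fewer cells of a type or phase and less RNA per cell cannot be told apart.

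**Figure D2:**
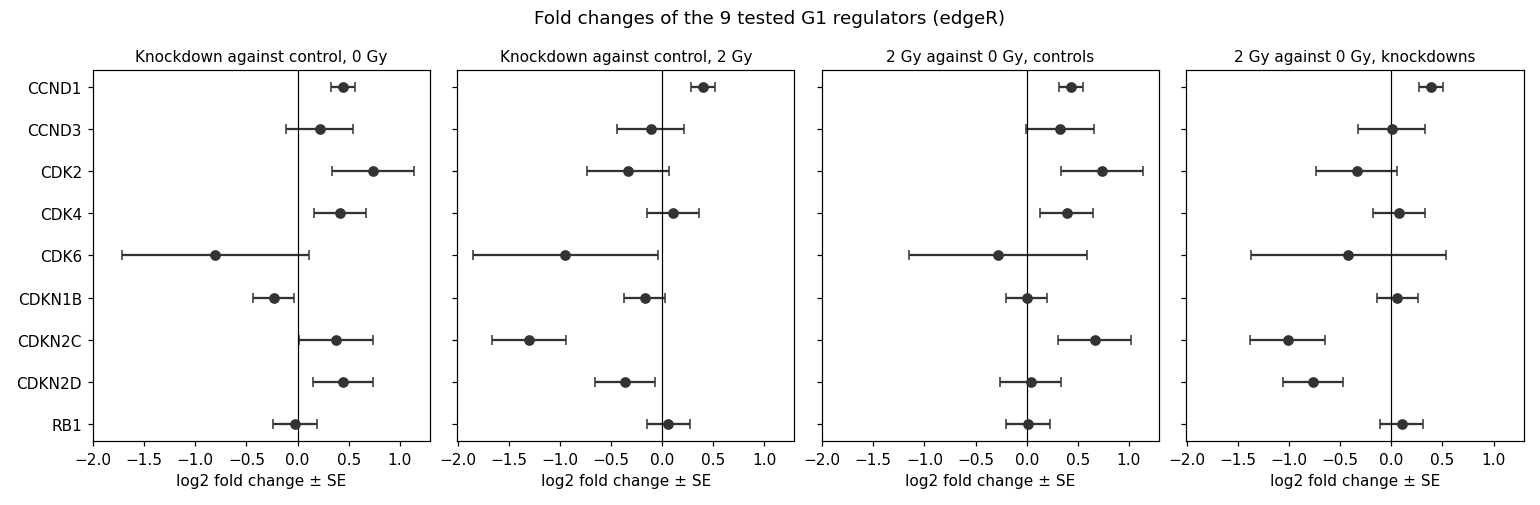
Log2 fold change of the 9 tested members with its standard error (edgeR, no replicate block) in 4 comparisons: knockdown against control at 0 and at 2 Gy, and 2 Gy against 0 Gy in controls and in knockdowns. CCND1 is positive in all 4 comparisons, between 0.39 and 0.44, whereas CCND3, CDK2, CDKN2C and CDKN2D are positive at 0 Gy and negative at 2 Gy in the knockdown comparisons.

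Among the cyclins, CCND1 (chromosome 11, 69641087 to 69654474, GRCh38, plus strand) differed between groups without overlap in all 4 comparisons. Its level was 232, 217 and 212 CPM in the control 0 Gy libraries (replicates 1 to 3) and 311, 300 and 286 CPM in the knockdown 0 Gy libraries. After 2 Gy it was 336, 288 and 267 CPM in the controls and 433, 379 and 361 CPM in the knockdowns. The lowest knockdown library lay above the highest control library in both states. The group means were 220 ± 10.6, 299 ± 12.6, 297 ± 35.7 and 391 ± 37.2 CPM (SD, n = 3), so that the knockdown without radiation and the irradiated control had nearly the same mean, and the irradiated knockdown stood above both.

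The log2 fold change of CCND1 for knockdown was 0.44 (SE 0.12) without irradiation and 0.40 (SE 0.12) with it, with adjusted p of 0.0840 and 0.286 in edgeR, and 0.000497 and 0.00214 with the replicate block. Averaged over both states it was 0.42 (SE 0.08), a 1.34-fold rise with adjusted p = 0.0147, and 3.87e-05 with the block. This averaged rise was called in all 20 alternatives run, with adjusted p from 3.87e-05 to 0.0479. The 6 differences within pairs, on log2 CPM, were 0.42, 0.46 and 0.43 at 0 Gy and 0.36, 0.40 and 0.44 at 2 Gy. Every pair was thus higher in the knockdown, and all 6 lay between 0.36 and 0.46. Across all genes tested, 28.8% had the same direction in all 6 pairs. Of the exon bases of CCND1, 10.3% also lie in exons of ORAOV1 on the opposite strand, whose knockdown log2 fold changes were 0.01 and 0.10, with group means of 21.1 to 22.7 CPM.

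CCND2, the D cyclin on chromosome 12 (4273772 to 4305350), had between 0 and 3 counts in every library, at or under what a count of 0 allows, and was the 1 member not tested. CCND3 encodes cyclin D3 (chromosome 6, 41934933 to 42050357, minus strand). Its means were 27.2 ± 3.42 and 31.6 ± 2.64 CPM in the control and knockdown 0 Gy groups and 34.2 ± 18.9 and 31.6 ± 11.9 CPM in the control and knockdown 2 Gy groups. The wide irradiated spread came from replicate 1, at 55.8 CPM in the control and 45.4 CPM in the knockdown, where the other irradiated libraries lay between 20.8 and 26.0 CPM. Its log2 fold change for knockdown was 0.21 (SE 0.33) without irradiation and -0.11 (SE 0.33) with it, and the latter was 0.08 without that pair.

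**Figure D3:**
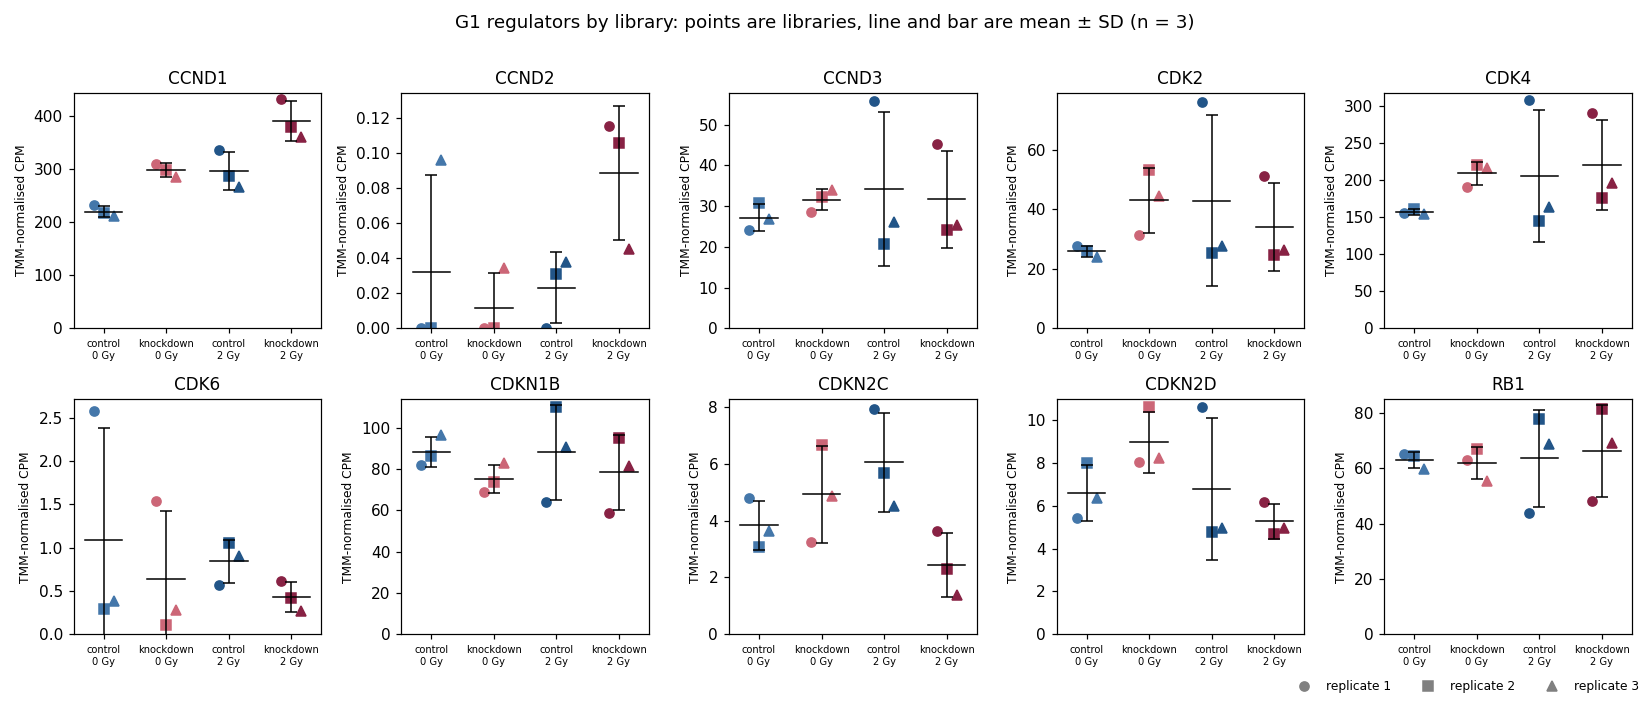
TMM-normalised CPM of each of the 10 members in the 12 libraries, 1 panel per gene with its own linear axis from 0, points by library and lines with bars for the mean ± SD (n = 3). CCND1 runs from 220 CPM in the control 0 Gy group to 391 CPM in the knockdown 2 Gy group. In both 2 Gy groups replicate 1 is highest for CCND1, CCND3, CDK2, CDK4, CDKN2C and CDKN2D and lowest for CDKN1B and RB1.

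Of the kinases, CDK4 (chromosome 12, 57747727 to 57756013, minus strand), the main partner of D cyclins here by RNA level, stood at 157 ± 3.81 CPM in the control 0 Gy group and 209 ± 15.7 CPM in the knockdown 0 Gy group. The 2 Gy groups had 205 ± 89.2 CPM (control) and 221 ± 61.0 CPM (knockdown). Replicate 1 of the irradiated groups was again high, at 308 and 290 CPM. Without irradiation the groups did not overlap, and the log2 fold change for knockdown was 0.42 (SE 0.26; edgeR adjusted p = 0.439, and 0.00319 with the block). Fitted on the 6 non-irradiated libraries alone, its adjusted p was 0.0262, where 9.25% of all genes were called. With irradiation the log2 fold change was 0.10 (SE 0.26), and 0.27 without the irradiated pair of replicate 1. The averaged value was 0.26 (SE 0.18; adjusted p = 0.440, and 0.00264 with the block). Without the irradiated pair of replicate 1 it was 0.34 (adjusted p = 0.00608, where 19.3% of all genes were called). Without the irradiated control of replicate 1 alone it was 0.46 (adjusted p = 0.0218, where 2780 of 17666 genes were called). Of its exon bases, 43.2% also lie in exons of TSPAN31 on the other strand. TSPAN31 had knockdown log2 fold changes of -0.18 and 0.01, and without the strand setting, reads of the 2 genes in the shared stretch cannot be told apart.

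CDK2 (chromosome 12, 55966769 to 55972784, plus strand), the kinase of late G1 and S phase, differed from CDK4 in how uneven its pairs were. It stood at 27.7, 26.0 and 23.8 CPM in the control 0 Gy libraries and at 31.4, 53.2 and 44.4 CPM in the knockdown 0 Gy libraries. After 2 Gy it was 76.0, 25.3 and 27.5 CPM in the controls and 51.2, 24.8 and 26.1 CPM in the knockdowns. The non-irradiated groups did not overlap, and in both irradiated groups replicate 1 stood well above the others. The log2 fold change for knockdown was 0.74 (SE 0.40; edgeR adjusted p = 0.376, 0.0278 with the block and 0.0350 on the non-irradiated libraries alone) without irradiation and -0.33 (SE 0.40) with it. Without the irradiated pair of replicate 1 the latter was -0.05. The 3 pairs at 0 Gy were 0.18, 1.03 and 0.90 and those at 2 Gy -0.57, -0.03 and -0.07. The mean log2 CPM of 18 replication genes (the MCM helicase, PCNA and others) differed within the same pairs by 0.08, 1.58 and 1.33 at 0 Gy and by -0.63, -0.08 and -0.06 at 2 Gy. CDK2 and the mean of the replication genes thus had the same sign in each of the 6 pairs, as did CDKN2D. The irradiated values -0.03 and -0.07 of CDK2 and -0.08 and -0.06 of the replication genes were small. The share of all genes with these signs is not given here, and the part of the replication genes in the CDK2 difference was not tested. Of the exon bases of CDK2, 16.8% also lie in another gene.

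CDK6 (chromosome 7, 92604921 to 92836594, minus strand), the other partner of D cyclins, was near the detection limit. Its counts were 41, 7 and 8 in the control 0 Gy libraries, 28, 3 and 8 in the knockdown 0 Gy libraries, 15, 34 and 24 in the control 2 Gy libraries and 16, 12 and 6 in the knockdown 2 Gy libraries. The highest levels, 2.58 and 1.54 CPM, were in the non-irradiated replicate 1 libraries, and all others lay between 0.105 and 1.06 CPM. KRT5 was found in these same libraries, at 5.09 and 8.44 CPM, and COL1A1 (22.9 and 21.5 CPM, against 11.5 to 20.04 CPM elsewhere) was also highest there, whereas TP63, a defining basal marker, had 2 counts in all libraries together and COL1A2 had 0. The 3 basal markers summed to 6.47 and 9.81 CPM in those libraries and to at most 4.96 CPM in the others, and the 6 fibroblast markers to 27.7 and 26.4 CPM against 12.5 to 22.6 CPM. The part of these markers in the CDK6 level was not tested. The averaged log2 fold change for knockdown was -0.88 (SE 0.64; edgeR adjusted p = 0.466, and 0.0295 with the block). At 0 Gy the value turned from -0.81 to 0.80 without the control library of replicate 1 alone. With both non-irradiated libraries of replicate 1 left out, the value at 0 Gy was -0.81 and the averaged value -0.88.

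**Figure D4:**
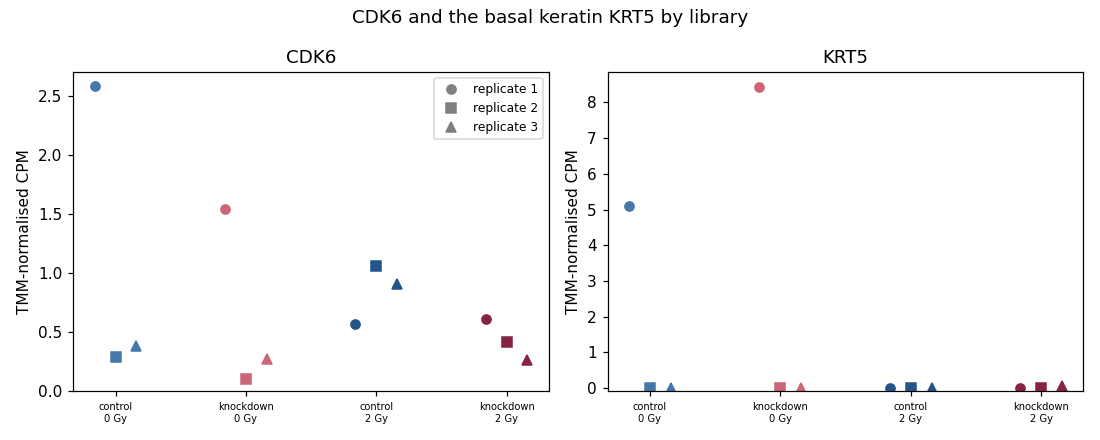
CPM of CDK6 (left) and of the basal keratin KRT5 (right) in the 12 libraries, by group on the x axis, with points shaped by replicate number. The 2 non-irradiated libraries of replicate 1 are the highest in both panels, at 2.58 and 1.54 CPM for CDK6 and 5.09 and 8.44 CPM for KRT5.

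Of the inhibitors, CDKN1B (chromosome 12, 12715058 to 12722371, plus strand) was the most abundant. It stood at 82.0, 86.4 and 96.3 CPM in the control 0 Gy libraries and at 69.0, 73.8 and 82.7 CPM in the knockdown 0 Gy libraries. After 2 Gy it was 64.0, 110 and 90.4 CPM in the controls and 58.6, 94.8 and 81.5 CPM in the knockdowns. The groups overlapped in both states, but within each pair the knockdown was lower, by -0.25, -0.23 and -0.22 at 0 Gy and by -0.13, -0.21 and -0.15 at 2 Gy on log2 CPM. The log2 fold change was -0.23 (SE 0.20) without irradiation, -0.17 (SE 0.20) with it and -0.20 (SE 0.14) averaged, with edgeR adjusted p of 0.598, 0.872 and 0.446. With the block these became 0.0112, 0.0832 and 0.00290, and the value at 2 Gy went to 0.01 without the control library of replicate 2. None of its exon bases lie in another gene. CCND1 (higher) and CDKN1B (lower) were the 2 tested members with 1 direction in all 6 pairs, to be read against the 28.8% of all genes that had one.

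CDKN2C (chromosome 1, 50960745 to 50974633, plus strand) was lowest in the irradiated knockdowns. Its levels were 4.78, 3.08 and 3.64 CPM in the control 0 Gy libraries and 3.25, 6.66 and 4.88 CPM in the knockdown 0 Gy libraries. After 2 Gy they were 7.94, 5.69 and 4.51 CPM in the controls and 3.65, 2.29 and 1.39 CPM in the knockdowns, which did not overlap. The pair differences were -0.54, 1.09 and 0.42 at 0 Gy and -1.10, -1.29 and -1.64 at 2 Gy. After irradiation the log2 fold change for knockdown was -1.30 (SE 0.36; edgeR adjusted p = 0.247), and the adjusted p was 0.0128 with the block, 0.0403 in DESeq2 and 0.0499 without the irradiated pair of replicate 1, where 1.87% of all genes were called. Without irradiation it was 0.38 (SE 0.36; adjusted p = 0.639), and 0.78 (adjusted p = 0.436) without the non-irradiated pair of replicate 1. The G2/M list (20 genes such as CCNB1 and MKI67) differed within the same pairs by -0.87, 2.73 and 2.00 at 0 Gy and by -0.67, -1.23 and -1.19 at 2 Gy, with the sign of CDKN2C in each pair. The part of these genes in the CDKN2C difference was not tested, and the share of all genes with these signs is not given here.

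CDKN2D (chromosome 19, 10566462 to 10569059, minus strand), the other INK4 member, stood at 5.41, 7.97 and 6.37 CPM in the control 0 Gy libraries and at 8.05, 10.6 and 8.20 CPM in the knockdown 0 Gy libraries, without overlap. After 2 Gy it was 10.6, 4.75 and 4.97 CPM in the controls and 6.18, 4.68 and 4.94 CPM in the knockdowns. Its log2 fold change for knockdown was 0.44 (SE 0.30; edgeR adjusted p = 0.476) without irradiation and -0.36 (SE 0.30; adjusted p = 0.779) with it. The 3 irradiated pairs were -0.77, -0.02 and -0.01, so that replicate 1 carried nearly all of the irradiated difference.

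RB1 (chromosome 13, 48303751 to 48481986, plus strand), the target of these kinases, was close to even between groups. Its means were 63.0 ± 2.90, 61.8 ± 5.87, 63.5 ± 17.6 and 66.3 ± 16.7 CPM in the control 0 Gy, knockdown 0 Gy, control 2 Gy and knockdown 2 Gy groups. Its log2 fold changes lay between -0.03 and 0.10 in the 4 comparisons, each with an SE of 0.21. No exon base of RB1, CDKN2C or CDKN2D lies in another gene.

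Between knockdown and control, 4 of the 9 tested members had groups without overlap at 0 Gy (CCND1, CDK2, CDK4 and CDKN2D, all higher), against 31.1% of all genes. At 2 Gy there were 2 (CCND1 higher and CDKN2C lower), against 13.5%.

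**Figure D5:**
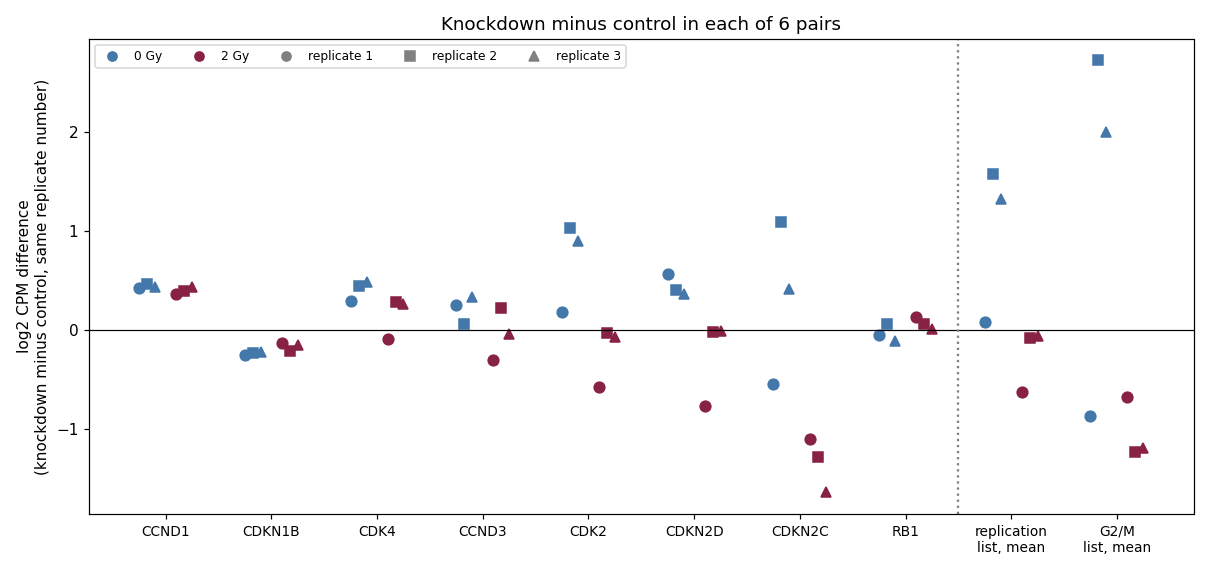
Difference in log2 CPM between knockdown and control of the same replicate number, for 8 members and for the means of the replication and G2/M lists, with 3 pairs at 0 Gy (blue) and 3 at 2 Gy (red). CCND1 lies between 0.36 and 0.46 and CDKN1B between -0.25 and -0.13 in all 6 pairs, while the other members drawn and the means of both lists take both signs.

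The second question was what irradiation changed. CCND1 was higher 24 h after 2 Gy in controls, by 0.43 (SE 0.12; edgeR adjusted p = 0.0758) on the log2 scale, and in knockdowns, by 0.39 (SE 0.12; adjusted p = 0.0944). Neither passed the threshold, although the libraries of the groups did not overlap in either comparison. The number of members called was 0 in controls, where 2.26% of all genes were called, and 0 in knockdowns, where 3.58% were. At an unadjusted p under 0.05 the number of members was 1 and 3, against 3740 and 3600 of the 17191 genes. Groups without overlap were found for 1 member in controls (CCND1, against 27.6% of all genes) and for 2 in knockdowns (CCND1 higher and CDKN2D lower, against 29.8%). The irradiation comparisons share no library, but each shares its groups with a knockdown comparison, so the values are not independent of those above. Counts divided by the library total alone, with no TMM factor, moved the median of all genes by -0.16 in controls and by -0.15 in knockdowns, and irradiation differences of that size depend on the scaling.

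In the knockdowns the calls of 3 members turned on the irradiated pair of replicate 1. CDKN2D was lower after 2 Gy by a log2 fold change of -0.77 (SE 0.30; edgeR adjusted p = 0.168), and -0.90 (adjusted p = 0.0158) without that pair. CDKN2C had -1.01 (SE 0.36; adjusted p = 0.144), and -1.42 (adjusted p = 0.0170) without it. CDK2 had -0.34 (SE 0.40; adjusted p = 0.667), and -0.76 (adjusted p = 0.0177) without it. CDKN2D was also called without the irradiated control of replicate 1 alone, a library outside this comparison (adjusted p = 0.0329, where 1489 of 17666 genes were called). All 3 had negative values with all libraries too. Without the irradiated pair of replicate 1, 3 of 9 members were called where 10.3% of all genes were. In the remaining irradiated libraries the mean of the replication genes lay between 4.40 and 4.49 log2 CPM, against 6.31 and 5.68 in the control and knockdown of replicate 1. With all libraries RB1 differed by 0.01 (SE 0.21) in controls and by 0.10 (SE 0.21) in knockdowns, and by 0.21 and 0.29 without that pair, neither of which passed the test (adjusted p = 0.285 and 0.106). CDKN1B had 0.06 (SE 0.20) in knockdowns.

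Whether the knockdown effect differed between the irradiation states was tested as an interaction. No gene passed in edgeR, 0% of the 17191, with 350 at an unadjusted p under 0.05, and DESeq2 also called 0. Without the non-irradiated pair of replicate 1, edgeR called 47 of 17429 genes (0.27%), 1 higher and 46 lower, with no member among them. CCND1 had an interaction of -0.04 (SE 0.17; unadjusted p = 0.803), so the 2 knockdown effects differed by less than their error. CDKN2C had -1.68 (SE 0.51; unadjusted p = 0.00667, adjusted p = 1.00), CDK2 -1.07 (SE 0.57; unadjusted p = 0.0831) and CDKN2D -0.80 (SE 0.42; unadjusted p = 0.0792). Without the non-irradiated pair of replicate 1 these were -2.08, -1.31 and -0.75. Without the irradiated pair of replicate 1 they were -1.84, -0.79 and -0.45, and none passed the test in either fit. The smallest adjusted p of a member with the block was 0.199, for CDKN2C.

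The surrounding pathway was read from lists chosen around the members. With the replicate block its calls are given in the same order as for the members (without irradiation, with it and averaged), to be read against the 27.8%, 11.5% and 34.3% of all genes. Of the other inhibitors CDKN1C, CDKN2A and CDKN2B, 2 were expressed enough to test, and both fell in the averaged comparison. CDKN2B (p15) went from 2.26 ± 0.212 to 0.792 ± 0.371 CPM without irradiation and from 1.15 ± 0.285 to 0.634 ± 0.137 CPM with it, an averaged log2 fold change of -1.20 (SE 0.25; edgeR adjusted p = 0.0177). CDKN2A went from 5.95 ± 0.835 to 3.86 ± 0.433 CPM and from 7.02 ± 1.85 to 4.90 ± 0.747 CPM, -0.57 averaged (SE 0.15; adjusted p = 0.0480), and 7.88% of its exon bases also lie in CDKN2B-AS1. Both encode INK4 inhibitors, as CDKN2C and CDKN2D do. CDKN2B was called in 17 of the 20 alternatives (adjusted p from 0.000709 to 0.0515) and CDKN2A in 6 of 20 (0.00137 to 0.122). With the block 2, 1 and 2 of the 2 were called, all lower. CDKN1C was too low to test.

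Of 17 genes of the RB family, E2F factors and the DREAM complex, 1 rose and 1 fell in the averaged comparison. E2F3, an activating E2F, rose by 0.44 (SE 0.09; edgeR adjusted p = 0.0150), with 43.3 ± 7.76 and 60.6 ± 4.15 CPM at 0 Gy and 54.9 ± 2.02 and 72.3 ± 3.42 CPM at 2 Gy in control and knockdown. E2F5, a repressive E2F, fell by 0.67 (SE 0.13; adjusted p = 0.0110), and by 0.80 at 0 Gy alone (adjusted p = 0.0499); 18.6% of its exon bases lie in another gene. The averaged calls of E2F3 and E2F5 held in all 20 alternatives, whereas that of E2F5 at 0 Gy held in 9 of 20 and in 3 of the 12 that left out 1 library. In this list the block gave 3 calls upward and 1 downward without irradiation, 2 and 1 with it, and 3 and 2 averaged. Of 12 genes that turn over G1 cyclins and inhibitors, AMBRA1, an adaptor of the ubiquitin ligase that degrades D cyclins, rose by 0.43 averaged (SE 0.08; adjusted p = 0.0114) and by 0.55 at 0 Gy (adjusted p = 0.0408). CUL1, the scaffold of the SCF ubiquitin ligases, fell by 0.31 (SE 0.07; adjusted p = 0.0196), and 10.9% of its exon bases lie in another gene. AMBRA1 was called averaged in all 20 alternatives, but at 0 Gy in 10 of 20 (4 of the 12 that left out 1 library), and CUL1 was called in 15 of 20. The block gave 4 calls upward and 1 downward without irradiation, 1 and 2 with it, and 6 and 2 averaged. SKP2, which marks p27 for degradation, had 0.71 with irradiation in controls (SE 0.18; adjusted p = 0.0640), from 26.6 ± 4.80 to 43.6 ± 9.27 CPM, and its cofactor CKS1B had -0.78 in knockdowns (SE 0.29; adjusted p = 0.156). SKP1 had 0.36 and 0.32 in the same comparisons. Among 8 genes of E and A cyclins and kinase activators, CCNH, a cyclin of the CDK-activating kinase, fell by 0.40 averaged (SE 0.11; adjusted p = 0.0458; 9.40% of its exon bases lie in another gene), and its partner CDK7 rose by 0.52 with irradiation in knockdowns (SE 0.12; adjusted p = 0.0433). The call of CCNH held in 10 of 20 alternatives and that of CDK7 in 7 of 21. Under the block there were 2 calls upward and 1 downward without irradiation, 0 and 1 with it, and 1 and 2 averaged. The S-phase cyclin CCNA2 had 1.31 for knockdown at 0 Gy (SE 0.50; adjusted p = 0.204) and 1.56 for irradiation in controls (SE 0.50; adjusted p = 0.111).

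Of the 18 replication genes 0 passed the test in any comparison in edgeR with all libraries and no block, with medians of 0.86 (18 of 18 positive) for knockdown without irradiation and -0.31 (0 of 18 positive) with it. With the block 6 were called without irradiation, 0 with it and 1 averaged, all higher. On the non-irradiated libraries alone 5 were called, also higher (9.25% of all genes called). DESeq2 called 1 for knockdown at 0 Gy (5.64%). Without the irradiated pair of replicate 1, 11 of the 18 were lower after irradiation in knockdowns (10.3% of all genes called) and 4 were higher in the averaged knockdown effect (19.3%). Of the 20 G2/M genes 1 passed with all libraries, CCNB1, which rose with irradiation in controls by 1.35 (SE 0.27; edgeR adjusted p = 0.0301), a call that held in 11 of 21 alternatives. The calls of this list turned on replicate 1 of the non-irradiated groups. Without that pair 15 of the 20 were higher in the knockdown at 0 Gy (1.12% of all genes called) and 16 with irradiation in controls (1.95%). In the same fit 14 had a lower knockdown effect at 2 Gy than at 0 Gy (0.27%) and 1 was higher averaged (4.28%). Without the non-irradiated control of replicate 1 alone, 3 were higher in the knockdown at 0 Gy (119 of 17518 genes called). With irradiation in controls 16 were (341 of 17518). With the block 0 were called in the knockdown comparisons. With all libraries the list medians were 0.93 and -1.07 for knockdown without and with irradiation. RRM1, a subunit of ribonucleotide reductase, and MCM2, of the replicative helicase, had 0.67 (SE 0.22; adjusted p = 0.147) and 1.45 (SE 0.51; adjusted p = 0.166) for knockdown at 0 Gy, and PCNA, the sliding clamp, had 0.91 (SE 0.27; adjusted p = 0.0950) for irradiation in controls. The mitotic kinesin KIF11 and the kinase AURKA had -1.13 (SE 0.41) and -0.94 (SE 0.36) for knockdown at 2 Gy, with adjusted p of 0.406 and 0.431. The G2/M mean of the control 0 Gy libraries was 4.51 log2 CPM in replicate 1 and 2.04 and 2.70 in the others, and CCND1 stood at 232, 217 and 212 CPM in the same libraries.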

How the data were processed

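RNA counts of 12 libraries were used. The authors deposited them as raw counts, 1 table per irradiation state, with the columns of featureCounts output per the file headers. STAR 2.5, featureCounts and Subread 1.5.3 are named in the submitters' processing notes, as are edgeR 3.20.8 and GRCh38. The strand setting, multimapping rule and annotation release were not given in the sources used here. Overlaps with other genes were computed from the exon coordinates in the tables.

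Of 63299 genes, 17191 passed filterByExpr (minimum count 10, minimum total 15). Counts of all 12 libraries were scaled by TMM and fitted with edgeR 4.0.16 in R 4.3.3 (robust quasi-likelihood, 1 mean per group, 8 residual degrees of freedom), and p-values were adjusted over all genes tested by the Benjamini-Hochberg method at 0.05. The averaged effect is the mean of both knockdown effects. Pair differences use log2 CPM with a prior count of 2. Shares were compared with exact permutation tests. The code was tested on simulated data.

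Within tables, same-numbered libraries deviated together (r from 0.23 to 0.30 at 0 Gy and from 0.61 to 0.78 at 2 Gy). At 2 Gy the unlike-numbered libraries of replicates 2 and 3 did so too (r of 0.40 and 0.48). Between replicate 1 and unlike numbers r ran from -0.68 to -0.59 there. Values with the replicate number as a block (4 residual degrees of freedom) are therefore printed where they change a call of a member, and as counts for the lists. Across tables r ran from -0.15 to 0.14, and the numbers do not pair the samples. Alternatives were RLE factors, library size only, no filter, DESeq2 1.42.0, limma-voom (limma 3.58.1), only the libraries compared, the block and leaving out each library; leaving out replicate 1 pairs was added after seeing the data.

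The members, lists and tests were chosen with earlier results of these data known. Every member is described; of each list, genes are named if called, or else from the 2 with the smallest p in a comparison. Replicates of a group were not alike within sampling noise. Some genes of the lists are not reported here by name.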

Additional observations from a re-analysis of the deposited data

Results flagged for a closer look

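CDK2 and CDKN2D are set apart because all 3 non-irradiated pairs were higher in the knockdown and all 3 irradiated pairs were lower. The mean of the replication genes had the same signs pair by pair, and the share of all genes with this pattern is not given here. The interaction of knockdown and irradiation was -1.07 on the log2 scale for CDK2 (SE 0.57; unadjusted p = 0.0831, edgeR adjusted p = 1.00) and -0.80 for CDKN2D (SE 0.42; unadjusted p = 0.0792, adjusted p = 1.00), so neither difference passed the test. For CDK2 the irradiated pairs of replicates 2 and 3 were -0.03 and -0.07, and for CDKN2D -0.02 and -0.01, close to 0.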

How the results depend on the processing

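The rise of CCND1 in the averaged knockdown effect was called in all 20 alternatives run. Members called moved from 0 to 1 (DESeq2), 3 (only the libraries compared) and 4 (replicate block) for knockdown at 0 Gy, and lay between 0 and 1 with single libraries left out. At 2 Gy they moved from 0 to 1 (DESeq2), 2 (block) and 1 (irradiated replicate 1 pair left out). For irradiation they were 1 in DESeq2 and 1 with the block, in controls and in knockdowns alike, and in knockdowns 0 to 2 with single libraries left out (2 without the irradiated control of replicate 1) and 3 without the irradiated replicate 1 pair. Averaged, they moved from 1 to 4 (block) and 2 (without that pair), and ran from 1 to 2 over single libraries, with 2 again without the irradiated control of replicate 1. These counts stand beside the shares of all genes called. For knockdown at 0 Gy the shares were 5.64% (DESeq2), 9.25% (only the libraries compared) and 27.8% (block), and at 2 Gy 1.51% (DESeq2), 11.5% (block) and 1.87% (without the irradiated replicate 1 pair). For irradiation they were 6.88% and 7.73% in DESeq2 and 5.61% and 6.73% with the block, in controls and knockdowns, and 10.3% in knockdowns without that pair. Averaged, they were 34.3% (block) and 19.3% (without that pair). Without the irradiated control of replicate 1 alone, 989 of 17666 genes were called for knockdown at 0 Gy, 1489 for irradiation in knockdowns and 2780 averaged. The interaction and averaged effects use all libraries, so they were not run on only the libraries compared. For irradiation the replicate numbers are shared names only; as a block they gave CCND1 an edgeR adjusted p of 0.0303 in controls and 0.0361 in knockdowns. The cause of each change was not tested.

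Of 54 log2 fold changes (9 members in 6 comparisons), 29 turned sign under at least 1 alternative, 89 values in all, none of them of a change called in edgeR with all libraries. Scaled by library size only, irradiation in controls gave CDKN2D -0.13 and RB1 -0.13, and irradiation in knockdowns gave CCND3 -0.15, CDK4 -0.08, CDKN1B -0.08 and RB1 -0.04. In limma-voom the former gave CDK6 0.41, CDKN2D -0.08 and RB1 -0.03 and the latter CCND3 -0.06 and CDK6 0.36. With no filter CDKN1B had 0.03 in controls. With the replicate block irradiation in controls gave CDK6 0.28, CDKN2D -0.02 and RB1 -0.02, and in knockdowns CCND3 -0.08. Without the 0 Gy replicate 1 pair it gave CDK6 1.32 and CDKN2D -0.08 in controls and CCND3 -0.06 and CDK6 1.18 in knockdowns. Without the 2 Gy replicate 1 pair, knockdown at 2 Gy gave CCND3 0.08, irradiation in controls gave CCND3 -0.23, CDK4 -0.03, CDKN1B 0.18 and CDKN2D -0.45, and irradiation in knockdowns gave CCND3 -0.35 and CDK4 -0.17.

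With single libraries left out, the values that turned sign had these ranges. Knockdown at 0 Gy gave CDK6 from -2.40 to 0.80 and RB1 from -0.09 to 0.04. Knockdown at 2 Gy gave CCND3 from -0.48 to 0.44, CDK2 from -0.77 to 0.37, CDK4 from -0.16 to 0.52, CDKN1B from -0.35 to 0.01, CDKN2D from -0.58 to 0.12 and RB1 from -0.14 to 0.24. Irradiation in controls gave CCND3 from -0.22 to 0.60, CDK4 from -0.03 to 0.60, CDK6 from -0.76 to 1.32, CDKN1B from -0.18 to 0.18, CDKN2D from -0.45 to 0.25 and RB1 from -0.15 to 0.21. Irradiation in knockdowns gave CCND3 from -0.35 to 0.16, CDK4 from -0.17 to 0.22, CDK6 from -0.99 to 1.17, CDKN1B from -0.10 to 0.23 and RB1 from -0.07 to 0.29. The interaction gave CCND1 from -0.13 to 0.07, CCND3 from -0.69 to 0.23, CDK4 from -0.57 to 0.11, CDK6 from -1.74 to 1.46, CDKN1B from -0.12 to 0.24 and RB1 from -0.11 to 0.27. The averaged effect gave CCND3 from -0.14 to 0.32, CDK2 from -0.02 to 0.55, CDKN2D from -0.07 to 0.28 and RB1 from -0.09 to 0.10.

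From plain counts, not divided by exon length, CCND1 made up 88.97% and 90.42% of the D cyclins in the control and knockdown 0 Gy groups, and CDK4 made up 85.36%, 82.87%, 83.29% and 86.81% of the G1 kinases in the control and knockdown 0 Gy and the control and knockdown 2 Gy groups. CCND2 and CDK6 are limited by depth.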
